A study of Homo sapiens with 3 samples.

Results

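Cohesin is the ring-shaped complex that holds sister chromatids together from their replication until anaphase, and 10 genes of the complex and of its removal were followed here. They were SMC1A, SMC3, RAD21, STAG1, STAG2, PDS5A, PDS5B, WAPL, SGO1 and ESPL1, chosen by symbol, and all 10 were found among the 14949 genes of the deposited expression table. The RNA came from MIAPaCa-2, a line grown from a human pancreatic tumour, and was read in 3 libraries. The first came from cells with a control short hairpin (sh-CTL, no drug, here the control), the second from cells with a hairpin against METTL3 (sh-METTL3, no drug, here the knockdown), and the third from sh-CTL cells exposed for 24 h to 80 nM of NMS-P937, which inhibits PLK1 (sh-CTL + PLK1i, here the inhibitor library). The METTL3 protein methylates adenosines in mRNA, a mark called m6A. PLK1 encodes a mitotic kinase that takes part in the removal of cohesin from chromosome arms. All 3 groups carry a hairpin, and how many METTL3 hairpins or clones were used is not given for these libraries. An untransduced or vehicle-treated group was not analysed here.

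In the cohesin ring, the ATPases SMC1A and SMC3 are closed by the kleisin RAD21, to which STAG1 or STAG2 binds. The PDS5 proteins sit on the ring and, with WAPL, open it, while acetylation of SMC3 and the protein sororin keep it shut. In prophase, PLK1, Aurora B and WAPL strip cohesin from chromosome arms. Shugoshin (SGO1) with the phosphatase PP2A shields the cohesin at centromeres until separase (ESPL1) cuts RAD21 at anaphase. STAG2 is frequently mutated in human cancers.

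Each group had 1 library, so a difference below is a difference between libraries, with no measure of variation between cultures and no test of the condition. Reads in listed genes numbered 37449320 in the control, 46944893 after knockdown and 47727514 with the inhibitor. The deposited log2 values could be turned back into whole numbers, here called reads. A normalized count is the number of reads divided by the library's size factor, a change is the difference of log2(normalized count + 1), and the interval in brackets is the exact 95% Clopper-Pearson interval of the read ratio, which covers counting error only. A change is called beyond counting error where that interval leaves out 0. METTL3, which checks the knockdown label, had 3378 reads in the control, 1781 after knockdown and 4223 with the inhibitor, and its normalized count after knockdown was 41.9% of the control. Its change with the inhibitor was -0.02, within counting error, so it does not check the inhibitor label. Of the epithelial markers, KRT8, KRT18 and KRT19 were abundant (3361 to 124197 reads per library), whereas EPCAM and CDH1 had no row in the table. Of the mesenchymal markers, VIM had 199813 to 267672 reads and CDH2 had no row. Of the markers of other cell types, the macrophage gene CD68 had 1505, 3499 and 2875 reads in the control, knockdown and inhibitor libraries. The fibroblast gene COL1A1 had 6 to 36, and PRSS1, CPA1, CELA3A, DCN, PTPRC, PECAM1 and VWF had no row. Their part in the results was not tested.

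All 10 cohesin genes were well covered, with 731 to 11722 reads per gene and library, and none reached the 2-fold difference that 6.37% of all genes reached after knockdown and 2.52% with the inhibitor. After knockdown, SGO1 and ESPL1 were about 20% lower than in the control, and the 8 other genes lay between 88.4% and 104% of it. With the inhibitor, all 10 lay between 89.3% and 109% of the control. The median change of the 10 genes was -0.09 after knockdown and -0.04 with the inhibitor, beside 0.0013 and 0.0024 for all genes. In bulk RNA, a lower share of cells in the phase that makes a transcript and less transcript per cell cannot be told apart.

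**Figure D1:**
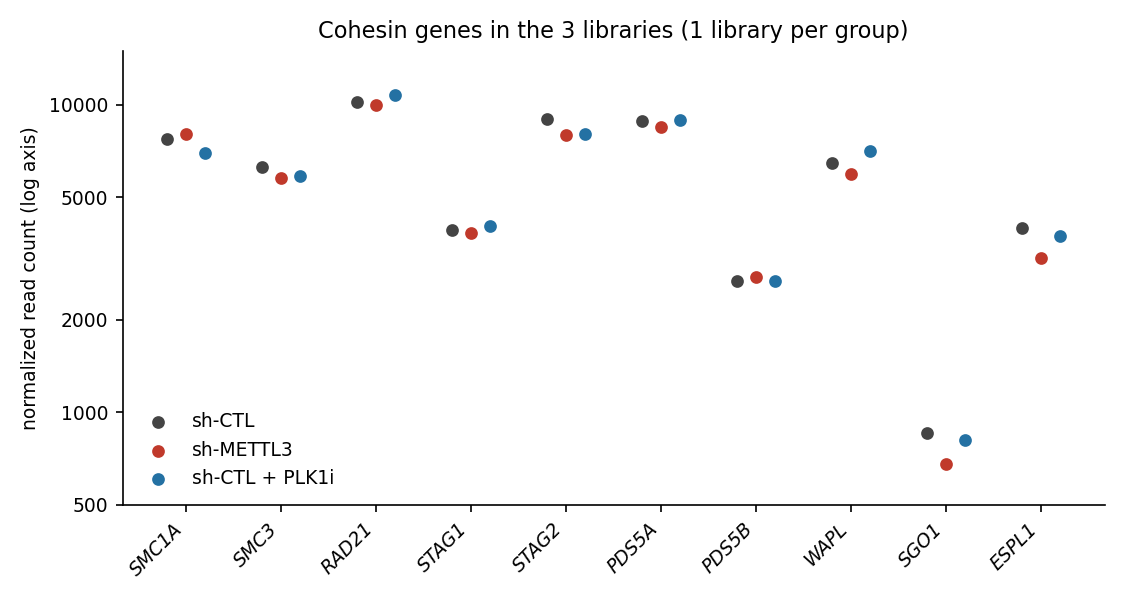
Normalized read counts on a log axis for the 10 cohesin genes, with 1 point per library (grey, sh-CTL; red, sh-METTL3; blue, sh-CTL + PLK1i) and no error bars because each group has 1 library. The points of a gene lie close together, and the SGO1 and ESPL1 points of sh-METTL3 (678 and 3179) sit below the other points of those genes.

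SGO1 and ESPL1 act at the end of cohesion, one as the protector of centromeric cohesin and the other as the protease that cuts it. SGO1 (ENSG00000129810; GRCh37 chromosome 3, 20202085 to 20227698, minus strand) had 735 reads in the control, 731 after knockdown and 880 with the inhibitor, or normalized counts of 857, 678 and 810. The knockdown library was the lowest. The SGO1 change after knockdown was -0.34 (-0.49 to -0.19), 79.1% of the control, and the change with the inhibitor was -0.08 (-0.22 to 0.06), within counting error. Between the knockdown library and the inhibitor library it was -0.26 (-0.40 to -0.11).

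ESPL1 (ENSG00000135476; chromosome 12, 53662083 to 53687422, plus strand) had 3422 reads in the control, 3430 after knockdown and 4060 with the inhibitor, with normalized counts of 3990, 3179 and 3738. As for SGO1, the knockdown library stood lowest and the control highest. The ESPL1 change was -0.33 (-0.40 to -0.26) after knockdown, 79.7% of the control, and -0.09 (-0.16 to -0.03) with the inhibitor. The 3 ESPL1 levels each differed from the next in order beyond counting error, and the knockdown library lay -0.23 (-0.30 to -0.17) from the inhibitor library. The SGO1 change with the inhibitor was of similar size (-0.08) but rests on fewer reads and had a wider interval.

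A change of at least 0.25 on the log2 scale toward lower levels was seen in 2 of the 10 genes after knockdown, SGO1 and ESPL1, and in 19.1% of all genes, so the share among the cohesin genes is near that of the table. Toward higher levels it was seen in 0 of the 10 genes, against 19.9% of all genes. With the inhibitor, 0 of the 10 genes passed 0.25 in either direction, against 14.2% of all genes higher and 15.4% lower. Of the better expressed genes, 9074 had a mean normalized count of 500 or more, a range that holds all 10 cohesin genes. Of these, 14.3% were lower by 0.25 after knockdown, and 85.3% of them had a change smaller in size than that of SGO1. The SD of the changes over those 9074 genes was 0.32 after knockdown and 0.19 with the inhibitor.

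The start sites of these genes are shown because SGO1 and ESPL1 transcripts are known to peak late in the cell cycle, and many such genes carry a cell cycle homology region (CHR), with the letters TTTGAA or TTCGAA, near a CCAAT box. Windows of 250 bases before to 50 after the RefSeq start were at hand for 9 of the 10 genes, in 12 windows, and each matched GRCh37 exactly at 1 place by the gene. On either strand, a CHR form stood in the windows of 4 of the 9 genes (SGO1, ESPL1, PDS5B and SMC3), against 16.6% of 27305 promoters, and CCAAT in 7 of the 9, against 35.7%. A gene was counted if any of its windows held the letters, while the share over promoters takes 1 window per gene. STAG2 has 3 windows, of which 2 hold CCAAT, and SMC1A has 2, with no match. Both stood in SGO1, ESPL1 and PDS5B, against 6.58% of promoters. The stretches that hold both are printed 5′ to 3′ on the gene's strand, with the CHR form and the CCAAT box (ATTGG where it lies on the other strand) in capitals. They lie at chr3:20227696-20227758 (minus strand), chr12:53662023-53662082 (plus) and chr13:33160529-33160599 (plus) of GRCh37, and begin 60 bases before the start.
SGO1: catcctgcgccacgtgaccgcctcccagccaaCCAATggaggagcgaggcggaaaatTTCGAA
ESPL1: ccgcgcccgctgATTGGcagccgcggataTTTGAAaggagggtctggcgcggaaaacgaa
PDS5B: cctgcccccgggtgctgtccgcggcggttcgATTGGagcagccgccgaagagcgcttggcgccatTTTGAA
The CCAAT box ends 23, 43 and 24 bases before the start in SGO1, ESPL1 and PDS5B. The CHR letters lie across the start in SGO1, before it in ESPL1 and after it in PDS5B. After knockdown, PDS5B had a change of 0.05 (-0.03 to 0.13), and SMC3, with a CHR form and no CCAAT, had -0.12. Whether the motifs bear on the changes was not tested. These letters are matches and not shown to be bound sites.

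The ring ATPases differed little between libraries, and SMC1A and SMC3 stood on opposite sides of the control after knockdown. SMC1A (ENSG00000072501; chromosome X, 53401070 to 53449677) had 6625, 8685 and 7572 reads in the control, the knockdown library and the inhibitor library, and normalized counts of 7725, 8050 and 6971. It was highest after knockdown and lowest with the inhibitor, and all 3 levels differed beyond counting error. Its change was 0.06 (0.01 to 0.11) after knockdown and -0.15 (-0.20 to -0.10) with the inhibitor, and the knockdown library stood 0.21 (0.16 to 0.25) above the inhibitor library. SMC3 (ENSG00000108055; chromosome 10, 112327442 to 112365806) had 5390, 6245 and 6398 reads in the same order, and normalized counts of 6285, 5789 and 5890. The SMC3 level was highest in the control, with changes of -0.12 (-0.17 to -0.07) and -0.09 (-0.15 to -0.04), and the other libraries did not differ beyond counting error (-0.03, -0.08 to 0.03).

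RAD21, the kleisin that separase cuts, had the most reads of the 10 genes. This gene (ENSG00000164754; chromosome 8, 117858173 to 117887015) had 8745 reads in the control, 10787 after knockdown and 11722 with the inhibitor, with normalized counts of 10198, 9999 and 10791. The inhibitor library was the highest. RAD21 differed by -0.03 (-0.07 to 0.01) after knockdown, within counting error, and by 0.08 (0.04 to 0.12) with the inhibitor. Part of the RAD21 span is covered by UTP23 on the opposite strand, which had 470 to 696 reads. The strand setting of the counting is not stated, so how the reads of the shared stretch were assigned is not known.

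STAG1 and STAG2 encode alternative subunits, since a ring holds one or the other, and only STAG2 differed beyond counting error against the control. STAG2 (ENSG00000101972; chromosome X, 123094062 to 123556514) had 7729 reads in the control, 8593 after knockdown and 8739 with the inhibitor, with normalized counts of 9013, 7965 and 8045. It was highest in the control, and the other libraries did not differ beyond counting error (-0.01, -0.06 to 0.03). The STAG2 change was -0.18 (-0.22 to -0.13) after knockdown and -0.16 (-0.21 to -0.12) with the inhibitor, the largest of the 10 genes in the latter. STAG1 (ENSG00000118007; chromosome 3, 136055078 to 136471245) had 3366, 4133 and 4395 reads and normalized counts of 3925, 3831 and 4046. Its changes of -0.04 (-0.10 to 0.03) and 0.04 (-0.02 to 0.11) lay within counting error, and the knockdown library lay -0.08 (-0.14 to -0.02) from the inhibitor library, a difference within counting error under upper-quartile scaling (-0.04). PCCB overlaps the STAG1 span on the opposite strand and had 1077 to 1541 reads, with the same limit.

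As a share of the reads of both STAG genes, STAG2 took 69.7% in the control (exact binomial 95% interval 68.8 to 70.5), 67.5% after knockdown (66.7 to 68.3) and 66.5% with the inhibitor (65.7 to 67.3). The share in the control was the highest, and its interval did not overlap the others, which overlapped each other. When reads were divided by the length of all annotated exons joined, the STAG2 share came to 53.0%, 50.5% and 49.4%. By the length of the canonical transcript it was 69.3%, 67.1% and 66.1%, so the size of the share depends on the length used. With joined exons the intervals after knockdown (49.6 to 51.4) and with the inhibitor (48.5 to 50.3) include 50%. The order of the libraries was the same by each length. This had to be so, since a given length applies the same ratio to every library, and it is no separate check.

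PDS5A and PDS5B, the paralogs that hold WAPL or sororin on the ring, were among the steadiest of the 10 genes. PDS5A (ENSG00000121892; chromosome 4, 39824483 to 39979576) had 7591 reads in the control, 9113 after knockdown and 9696 with the inhibitor, and normalized counts of 8852, 8447 and 8926. It was slightly lower after knockdown, at -0.07 (-0.11 to -0.02), and within counting error with the inhibitor, at 0.01 (-0.03 to 0.06). PDS5B (ENSG00000083642; chromosome 13, 33160589 to 33352157) had 2291, 2978 and 2913 reads and normalized counts of 2672, 2760 and 2682, and no pair of libraries differed beyond counting error, other than knockdown against inhibitor under upper-quartile scaling (0.08). Per length of joined exons, PDS5A made up 78.2% of the pair in the control (77.4 to 79.0), 76.8% after knockdown (76.0 to 77.5) and 78.2% with the inhibitor (77.5 to 78.9). PDS5A was thus the more abundant paralog in each library, also by the canonical transcript (77.6%, 76.2% and 77.7%).

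WAPL, the factor that opens the ring outside of anaphase, differed from the control in opposite directions in the other libraries. The gene (ENSG00000062650; chromosome 10, 88195013 to 88281549) had 5559 reads in the control, 6453 after knockdown and 7704 with the inhibitor, and normalized counts of 6482, 5981 and 7093. It was highest with the inhibitor and lowest after knockdown, and all 3 levels differed beyond counting error. The WAPL change was -0.12 (-0.17 to -0.06) after knockdown and 0.13 (0.08 to 0.18) with the inhibitor, the largest positive change of the 10 genes there. The direct difference, the knockdown library minus the inhibitor library, was -0.25 (-0.29 to -0.20).

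**Figure D2:**
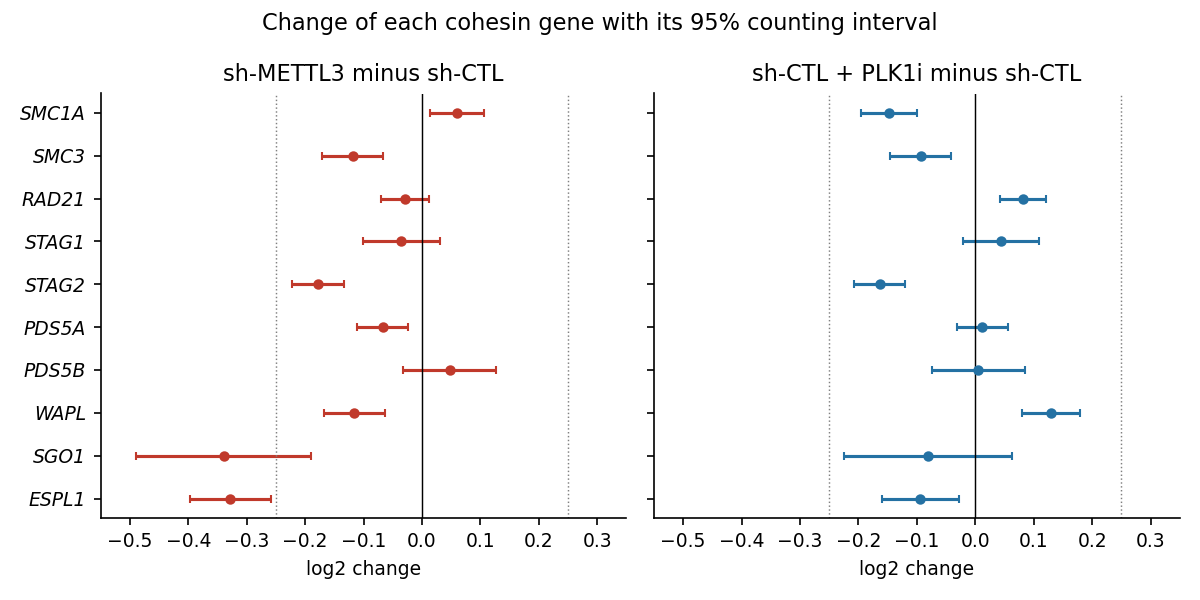
Log2 change against sh-CTL for each of the 10 cohesin genes in sh-METTL3 (left) and sh-CTL + PLK1i (right), where bars are 95% counting intervals and dotted lines mark 0.25. SGO1 and ESPL1 lie past -0.25 on the left, and no gene passes 0.25 on the right.

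By counting error alone, 6 of the 10 genes were lower after knockdown (SMC3, STAG2, PDS5A, WAPL, SGO1 and ESPL1) and 1 was higher (SMC1A). Among all genes 28.2% were lower and 27.1% higher by that measure, and in the 9074 better expressed genes the shares were 35.4% and 29.9%. With the inhibitor, 4 of the 10 genes were lower (SMC1A, SMC3, STAG2 and ESPL1) and 2 were higher (RAD21 and WAPL), against 22.8% lower and 23.1% higher in the table and 27.8% and 29.9% of those 9074 genes. Both comparisons use the same control library, so the values of a gene in them are not independent.

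Levels were set against each other per kilobase of joined exons. In the control they ran from 203 normalized counts per kilobase for PDS5B and 229 for SGO1 to 725 for PDS5A and 900 for WAPL, and the ratio of the highest to the lowest was 4.44. Per kilobase of the canonical transcript, which in RAD21 is 3660 bases against 14382 bases of joined exons, RAD21 was highest, at 2786 per kilobase, and SGO1 lowest, at 279. SGO1 was thus among the lowest on both scales, and the place of RAD21 in the order depends on the length taken. WAPL was the highest of the 10 in each library by joined exons, and RAD21 in each library by canonical transcript.

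The genes next to each cohesin gene on its chromosome were compared with it, to set each change beside its surroundings. For SGO1, the median change after knockdown was 0.11 over the 24 nearest genes whose mean reached 50, and 3 of the 24 lay below SGO1. The 24 neighbours of ESPL1 had a median of 0.12, and again 3 of the 24 lay below the gene. Both genes were therefore lower than most of their surroundings, with differences of -0.45 each. Among all genes, 19.1% were lower by at least 0.25 after knockdown, so most genes anywhere lay above SGO1 and ESPL1. Their place below most neighbours is thus no separate result. STAG2 lay below the middle 50% of its neighbours in both comparisons, with neighbour medians of -0.02 after knockdown and 0.02 with the inhibitor. With 25 genes on each side it lay just inside the middle 50% after knockdown and still below it with the inhibitor.

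On the X chromosome, the neighbours of SMC1A had a median of -0.10 after knockdown, while SMC1A stood above 18 of the 24. With the inhibitor they had a median of 0.03, and SMC1A stood above 6 of the 24. WAPL lay above 19 of its 24 neighbours with the inhibitor, whose median was -0.02. Around ESPL1 the median with the inhibitor was -0.18, lower than ESPL1 itself at -0.09. For RAD21, STAG1, PDS5A and PDS5B the change stayed within the middle 50% of the neighbours in both comparisons.

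**Figure D3:**
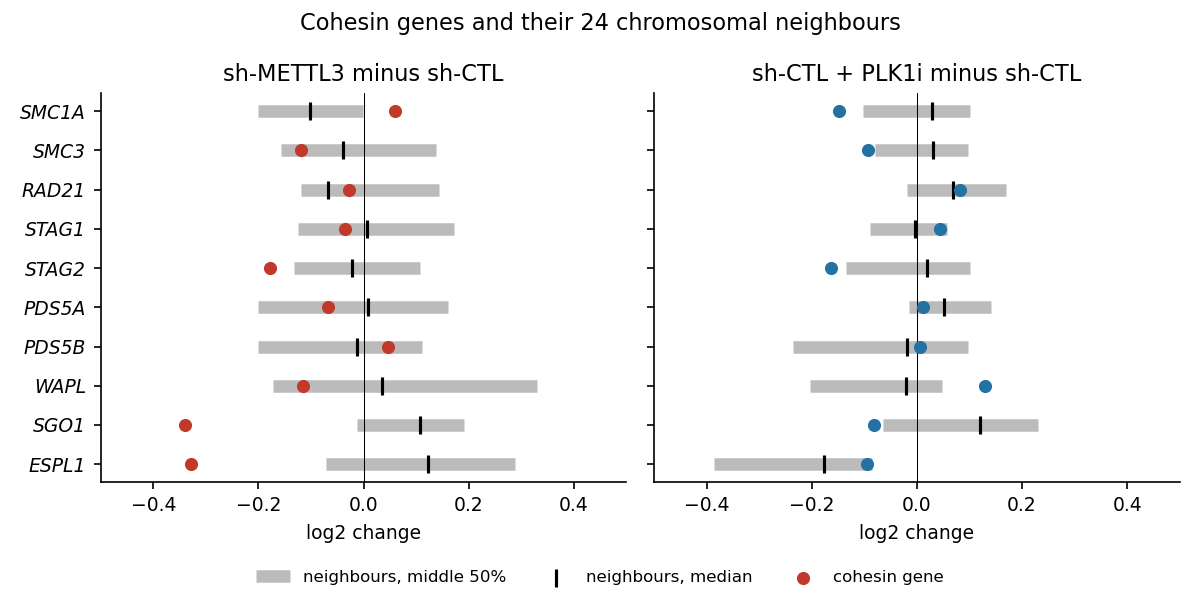
Log2 change of each cohesin gene (coloured point, red for sh-METTL3 on the left and blue for sh-CTL + PLK1i on the right) beside its 24 chromosomal neighbours, given as their median (black tick) and middle 50% (grey bar). SGO1 and ESPL1 sit to the left of their neighbours' grey bars in sh-METTL3, at -0.34 and -0.33.

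The sequence GGACT, a common form of the site that METTL3 methylates, was counted in the canonical transcript of each gene. ESPL1 held 11 copies, or 1.66 per kilobase, the highest of the 10 genes, and SMC1A held 12, or 1.24 per kilobase. SGO1 held 1 copy, or 0.326 per kilobase, the lowest. The median over the 10 genes was 0.814 per kilobase, against 0.922 over 14789 genes, and 87.5% of those held at least 1 copy. ESPL1 and SGO1, the genes lowest after knockdown, held the highest and the lowest density of the 10. Methylation itself was not measured in these libraries, and a link between this count and the changes was not tested.

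Other genes of the cohesin cycle were taken from 7 lists with 43 genes, of which 39 had a row. After knockdown, 1 of the 39 was higher by at least 0.25 and 6 were lower, with a median change of -0.01. With the inhibitor, 3 were higher and 3 lower, with a median of 0.05. These shares lie at or below the 14.2% to 19.9% of all genes that passed 0.25 in 1 direction.

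Cohesin is loaded by NIPBL with MAU2, and both were within 0.25 in each comparison. NIPBL had normalized counts of 4579, 4437 and 5136 in the control, the knockdown library and the inhibitor library, with changes of -0.05 (-0.11 to 0.02) and 0.17 (0.11 to 0.22). MAU2 had 2073, 2248 and 1861, with changes of 0.12 (0.03 to 0.21) and -0.16 (-0.25 to -0.06). The loader subunits thus differed from the control in opposite directions with the inhibitor.

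Of the 12 genes of SMC3 acetylation, its reversal, or the establishment of cohesion, only ESCO1 passed 0.25. ESCO1, an acetyltransferase of SMC3, had normalized counts of 1221, 978 and 1249 and differed by -0.32 (-0.44 to -0.20) after knockdown and by 0.03 (-0.08 to 0.15) with the inhibitor. Its paralog ESCO2, which acts in S phase, differed by 0.15 (0.06 to 0.24) and -0.08 (-0.18 to 0.01). HDAC8, the deacetylase of SMC3, differed by 0.10 and 0.07, both within counting error. CDCA5, which encodes sororin, the protein that counters WAPL, had counts of 6101, 6310 and 6524 and changes of 0.05, within counting error, and 0.10 (0.05 to 0.15).

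Separase is held inactive by securin (PTTG1) and by CDK1 with cyclin B1 (CCNB1), and it is freed when CDC20 turns on the anaphase-promoting complex. PTTG1 differed by 0.13 after knockdown and 0.13 with the inhibitor (normalized counts of 8663, 9478 and 9460), so it was higher than in the control in both. CDK1 had normalized counts of 6487, 7165 and 4781, at 110% of the control after knockdown and 73.7% with the inhibitor, a change of -0.44 (-0.50 to -0.39) in the latter. CCNB1 differed by 0.04 and 0.12, and CDC20 by -0.08 and 0.19. PTTG2 had no row in the table.

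At centromeres, SGO2, the paralog of SGO1, differed from the control in the direction opposite to SGO1 after knockdown. SGO2 had 3250 reads in the control, 4895 after knockdown and 4565 with the inhibitor, with normalized counts of 3790, 4537 and 4202. It was higher in both libraries, by 0.26 (0.20 to 0.32) and 0.15 (0.08 to 0.21). Of the 12 genes of this list, 1 was higher and 3 lower by 0.25 after knockdown, and 2 were higher and 0 lower with the inhibitor.

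Among the PP2A subunits, which act with shugoshin, the catalytic subunit gene PPP2CB differed by 0.12 after knockdown and 0.30 (0.24 to 0.37) with the inhibitor. The scaffold gene PPP2R1B differed by -0.25 (-0.31 to -0.19) and -0.12. Of the 5 B56 regulatory subunits, PPP2R5E was lower after knockdown, at -0.43 (-0.50 to -0.35), and -0.02 with the inhibitor. PPP2R5B, with 214, 178 and 361 reads, differed by -0.59 (-0.89 to -0.30) and 0.41 (0.17 to 0.66). The other 3 stayed within 0.25 in both.

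PLK1 itself, the target of the inhibitor, had normalized counts of 8058, 5226 and 8515, at -0.62 (-0.68 to -0.57) after knockdown and 0.08 (0.03 to 0.12) with the inhibitor. AURKB, which encodes Aurora B, differed by 0.13 and -0.14. Of the partners of Aurora B, INCENP differed by -0.10 and -0.34 (-0.40 to -0.28), and CDCA8 by -0.03 and 0.32 (0.27 to 0.37). INCENP and CDCA8 thus stood on opposite sides of the control with the inhibitor. BIRC5, another partner in the list, lay within counting error there (-0.006, -0.05 to 0.04).

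Of the meiotic cohesin genes, REC8, the kleisin of meiosis, was the only one of 4 with a row, with 136, 132 and 132 reads. Its changes of -0.37 (-0.73 to -0.02) and -0.38 (-0.74 to -0.03) rest on few reads, and SMC1B, RAD21L1 and STAG3 had no row. CTCF, the protein that stops cohesin at loop anchors, differed by 0.06 and 0.07, and 0 of the 3 loop anchor genes passed 0.25 in either comparison.

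**Figure D4:**
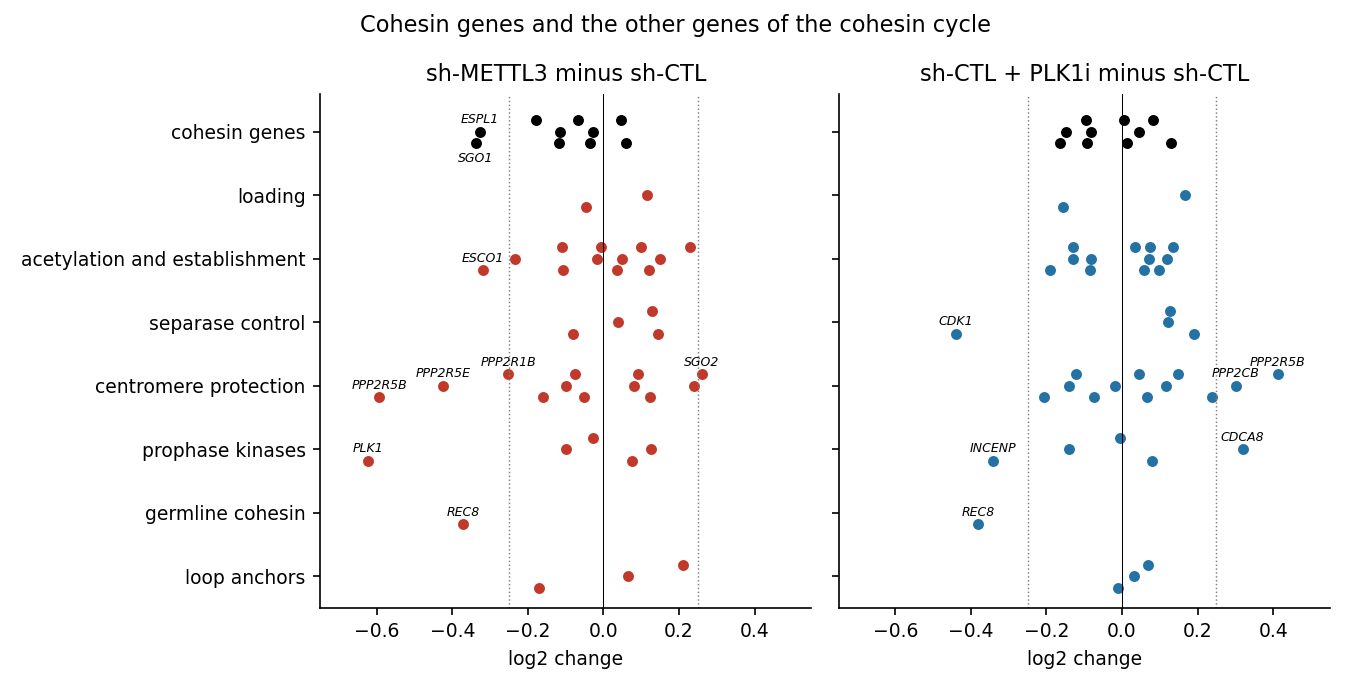
Log2 change against sh-CTL of the 10 cohesin genes (black) and of 39 other genes of the cohesin cycle by list (red, sh-METTL3; blue, sh-CTL + PLK1i), where points are offset vertically for legibility, dotted lines mark 0.25 and genes past them are named. PLK1, at -0.62, is the lowest of these genes in sh-METTL3, and CDK1, at -0.44, in sh-CTL + PLK1i.

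The genes most like the cohesin genes of largest change were sought by the distance between pairs of log2 changes over the 3 libraries, in the 9073 other genes whose mean reached 500. Nearest to SGO1 were CHST3 (-0.34 and -0.08), EP400 (-0.34 and -0.07) and the RNA gene CHASERR (-0.33 and -0.09), at distances of 0.0026 to 0.0109. Nearest to STAG2 were C11orf95, LPGAT1 and SPAG16, at distances of 0.0026 to 0.0101, with changes of -0.17 to -0.19 after knockdown and -0.17 with the inhibitor. With 3 libraries a pattern is a pair of values that many genes come near.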

How the data were processed

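The authors deposited log2 expression values for 14949 genes in 3 libraries, 1 per group. The submitters' processing notes name FastQC 0.11.9, STAR 2.7.10 and RSEM 1.3.3 with build hg19. The normalization is not given in the sources used here. Column names were matched to the sample titles, and treatment was taken from the treatment field, since the protocol text names the drug for every sample. With the log2 undone and 4 subtracted, values were whole multiples of 1.17, 0.927 and 0.921 in sh-CTL, sh-METTL3 and sh-CTL + PLK1i. Below 2000 reads, 100% lay within 0.1 of a whole read, and all were rounded. RSEM estimates need not be whole, so the values called reads may be estimates rounded before deposit, and the intervals treat them as reads.

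Genes were matched by symbol, or by GENCODE 44 on GRCh37 where none was given, and 14858 identifiers had a position. Log2 changes had no test, as there were no replicates. Intervals cover counting error only, since each group had 1 library. Reads carry no molecular identifiers, so any duplicate reads were counted as separate reads, and the intervals may be too narrow. The steps were tested on simulated data that held counting error only. That test covers neither variation between cultures nor the RSEM estimation. Named were the 10 genes, the loading, separase and meiotic lists, certain regulators, any listed gene past 0.25, and the 3 nearest patterns. Members and lists were chosen with earlier results of these data known. Promoter windows came from RefSeq (GRCh38.p14) and were matched to GRCh37. Alternatives were pseudocounts, scalings, filters, thresholds, neighbour windows and lengths. Analysis used Python 3.11.15 and scipy 1.17.1.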

Additional observations from a re-analysis of the deposited data

How the results depend on the processing

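No paired analysis was possible because each group had 1 library, and for the same reason no library could be left out. All 150 recomputed changes of the 10 genes stayed within their counting intervals under the pseudocounts of 0.5 and 4 and the 3 other scalings. This is a weak check, because with 731 or more reads per gene a pseudocount could hardly move a change. The recomputed median-of-ratios factors kept nearly the ratios of the deposited ones. Upper-quartile scaling shifted the median of all genes by 0.037 in sh-METTL3 minus sh-CTL + PLK1i. With upper-quartile scaling, 2 of the 10 genes rather than 1 were higher in sh-METTL3 than in sh-CTL + PLK1i, as PDS5B joined. On the lower side there were 5 rather than 6, as STAG1 left. Of the 9074 better expressed genes, 34.5% were higher and 40.2% lower beyond counting error in this comparison, under the deposited scaling. These shares too depend on the number of reads and are not like for like with the 10 genes. At a threshold of 0.5, 0 of the 10 genes passed, and the shares of all genes fell to 9.63% higher and 8.34% lower in sh-METTL3 and to 5.18% and 5.77% in sh-CTL + PLK1i. With a mean of at least 200 required, 13.1% of genes were higher in sh-METTL3, and 8.38% were higher and 9.31% lower in sh-CTL + PLK1i. With at least 500 the same shares were 10.4%, 7.15% and 7.52%. In these filters genes of low count drop out.

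By canonical transcript, an alternative chosen after the data were seen, the highest level of the 10 genes was 9.98, 12.4 and 11.2 times the lowest in sh-CTL, sh-METTL3 and sh-CTL + PLK1i. By the longest transcript the STAG2 share of the pair was 66.9%, 64.7% and 63.6%, and by the canonical transcript 69.3%, 67.1% and 66.1%. SGO1, with the fewest reads, had the widest intervals.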
